A study of Mus musculus with 2 samples.

Results

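The regions described here are 1573 intronic peaks of POU5F1, a transcription factor of the POU family known as OCT4 too, in mouse embryonic stem cells. They were taken from the authors' whole-series list of 5515 ChIP-seq peaks on the mm9 genome, and make up 28.5% of it (95% Clopper-Pearson interval 27.3 to 29.7%). A peak was included when its centre lay inside the body of a protein-coding gene, in no annotated exon, over 1 kb from every annotated transcript start and at most 100 kb from the nearest protein-coding start (GENCODE M1). No signal value entered this choice. The other peaks were 581 at promoters, 112 in exons, 2142 intergenic peaks within 100 kb of a coding start and 1107 peaks farther away.

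The cells were E14TG2a.4, a male embryonic stem cell line of strain 129/Ola, with an age of 3.5 days in the labels and no genetic change or treatment given. There was 1 group with 2 biological replicates and no second condition, so each result below is a description of peak lists from 1 line. The whole-series list gives 1 signal value per peak, without an error. The labels name a control experiment, which was not analysed here. Read depth is unknown, because the lists hold no read counts.

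POU5F1 is required to keep embryonic stem cells pluripotent. It binds DNA with a bipartite POU domain, often beside SOX2 on a composite element in which a SOX site adjoins an octamer-like site, and POU factors can also pair as homodimers on palindromic sites such as MORE. Many enhancers of embryonic stem cells lie far from promoters, inside introns of the gene they act on or of a neighbour.

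The sequences of 7 of the 20 strongest intronic peaks are shown first. They are examples, and all but the last hold at least 1 of the patterns marked here. The 201 bases centred on each peak are given 5′ to 3′ on the plus strand of mm9. Capitals mark the octamer ATGCAAAT, the MORE palindrome (ATGCAT repeated, at most 1 mismatch) or the letters ATGAATATGCA, a near match to MORE, on either strand. The last pattern was looked for after these windows had been read. Of all 20 strongest peaks, only 7 held the composite, the octamer, MORE or ATGAATATGCA. The windows shown are therefore not typical of the 20.
Gprc5b intron 1, chr7:126136062-126136262: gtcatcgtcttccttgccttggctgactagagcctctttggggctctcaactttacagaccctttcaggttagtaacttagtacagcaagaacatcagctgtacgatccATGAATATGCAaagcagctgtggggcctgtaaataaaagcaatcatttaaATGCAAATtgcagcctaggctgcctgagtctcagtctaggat
Il11ra1 intron 2, chr4:41654184-41654384: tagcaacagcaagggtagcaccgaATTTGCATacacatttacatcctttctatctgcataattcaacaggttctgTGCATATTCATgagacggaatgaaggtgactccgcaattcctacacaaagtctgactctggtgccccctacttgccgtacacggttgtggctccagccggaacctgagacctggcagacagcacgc
Lemd1 intron 1, chr1:134118855-134119055: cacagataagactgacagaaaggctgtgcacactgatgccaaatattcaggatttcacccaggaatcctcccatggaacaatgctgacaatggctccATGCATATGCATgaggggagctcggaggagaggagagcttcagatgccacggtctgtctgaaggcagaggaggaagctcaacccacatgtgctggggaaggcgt
Macrod1 intron 3, chr19:7218488-7218688: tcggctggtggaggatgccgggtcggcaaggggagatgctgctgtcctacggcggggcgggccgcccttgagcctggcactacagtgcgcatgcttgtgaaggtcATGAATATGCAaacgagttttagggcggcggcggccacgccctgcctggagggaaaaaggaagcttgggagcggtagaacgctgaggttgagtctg
Rnf220 intron 2, chr4:117085941-117086141: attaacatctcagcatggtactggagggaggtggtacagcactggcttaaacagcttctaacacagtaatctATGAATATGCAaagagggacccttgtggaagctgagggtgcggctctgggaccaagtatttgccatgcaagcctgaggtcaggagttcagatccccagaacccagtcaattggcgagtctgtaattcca
Kat2b intron 1, chr17:53731317-53731517: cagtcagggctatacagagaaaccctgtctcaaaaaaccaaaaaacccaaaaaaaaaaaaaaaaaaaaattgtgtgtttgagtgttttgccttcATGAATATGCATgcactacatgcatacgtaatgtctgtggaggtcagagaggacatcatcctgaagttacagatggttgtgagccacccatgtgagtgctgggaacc
D430041D05Rik intron 11, chr2:104060325-104060525: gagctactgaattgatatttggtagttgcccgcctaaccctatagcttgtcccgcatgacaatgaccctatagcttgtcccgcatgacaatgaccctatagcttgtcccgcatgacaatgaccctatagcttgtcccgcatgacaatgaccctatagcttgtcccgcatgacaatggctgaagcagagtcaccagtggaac
The windows of Gprc5b, Il11ra1, Macrod1, Rnf220 and Kat2b each held ATGAATATGCA, and that of Lemd1 held the exact MORE palindrome. The D430041D05Rik window held none of these POU elements. It carried a tandem repeat with the SOX site CATTGT on the other strand, where CATGC follows it. The letters CATTGTCATGC begin a form of the composite, but the window held no composite match with at most 2 mismatches.

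A further 9 windows of 81 bases are centred on a match to the SOX-POU composite element, a 15-base motif searched with at most 2 mismatches. They are the 4 exact matches among the intronic peaks, the other 2 Ebf1 peaks, and examples from Smarca2, Etl4 and Grik3. Coordinates are mm9, bases are on the plus strand, and capitals mark the composite and any octamer.
Ebf1 exact, chr11:44655351-44655431: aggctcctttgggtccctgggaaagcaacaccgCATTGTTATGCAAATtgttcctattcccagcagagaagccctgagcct
Arhgef10l exact, intron 17, chr4:140122537-140122617: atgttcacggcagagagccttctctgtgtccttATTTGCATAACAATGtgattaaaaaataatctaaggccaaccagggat
Arhgef10l exact, intron 2, chr4:140170645-140170725: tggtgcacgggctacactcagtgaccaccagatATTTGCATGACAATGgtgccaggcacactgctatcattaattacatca
Cdk12 exact, chr11:98118329-98118409: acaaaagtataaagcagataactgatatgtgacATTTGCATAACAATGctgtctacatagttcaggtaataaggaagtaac
Ebf1 1 mismatch, chr11:44677619-44677699: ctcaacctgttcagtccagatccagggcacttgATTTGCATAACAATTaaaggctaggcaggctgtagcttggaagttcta
Ebf1 2 mismatches, chr11:44522903-44522983: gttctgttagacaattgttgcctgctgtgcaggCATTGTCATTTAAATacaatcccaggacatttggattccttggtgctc
Smarca2 1 mismatch, chr19:26683083-26683163: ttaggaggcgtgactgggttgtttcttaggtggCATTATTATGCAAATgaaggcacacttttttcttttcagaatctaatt
Etl4 2 mismatches, chr2:20515975-20516055: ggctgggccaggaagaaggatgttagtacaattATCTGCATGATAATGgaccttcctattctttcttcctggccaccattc
Grik3 2 mismatches, chr4:125222478-125222558: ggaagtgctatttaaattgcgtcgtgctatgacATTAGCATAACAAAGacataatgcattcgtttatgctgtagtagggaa
The 3 Ebf1 windows lie in intron 6 of that gene, which encodes a transcription factor of early B-cell development. Arhgef10l, a guanine nucleotide exchange factor, held 2 of the 4 exact matches in 2 of its introns, and Cdk12, a kinase of the RNA polymerase II tail, held another. The peaks with exact matches had signals of 14.39 in Ebf1, 5.87 and 4.41 in Arhgef10l and 3.82 in Cdk12. The median of all intronic peaks was 5.58. Both Arhgef10l peaks were in the list of replicate 2 only.

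Over all intronic peaks, the shares of windows with a POU element depended on the mismatches allowed. The composite, with at most 2 mismatches, was present within 100 bp of the centre in 144 of 1573 peaks, or 9.15% (95% interval 7.77 to 10.7%), against 1 of 1573 (0.0636%) in the same windows shifted by 2 kb. Over the whole list the share was 9.3%, and in intergenic peaks it was 8.54%. Of the 144 matches, 4 had 0 mismatches, 27 had 1 and 113 had 2, so the share was 1.97% with at most 1 mismatch (0 shifted windows). It was 31.5% with at most 3, against 1.27% of shifted windows.

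The exact octamer was present in 212 intronic peaks (13.5%) and 21 shifted windows (1.34%), with 13.4% over the whole list. With at most 1 mismatch the octamer was in 55.7% of intronic and 18.7% of shifted windows. MORE was present in 41 (2.61%) and 1 shifted window (0.0636%), with 2.38% over the whole list. These letters overlap one another: the octamer forms part of the composite, and the Etl4 peak at signal 5.58 held both MORE and the octamer on shared bases. Counted once, 343 intronic peaks (21.8%) held at least 1 of the 3 elements. The SOX site CATTGT was found in 19.7% of intronic windows and in 10% of shifted ones. For other pluripotency factors, TCAAGGTCA, the letters bound by ESRRB, was in 1.46% against 0.445% and the KLF-type GGGTGTGG in 2.42% against 1.4%. The patterns differ in length and in the mismatches allowed, so their shares do not rank the factors. The shares in intronic peaks lay near those of the whole list, and no difference between classes was tested. A match is a string of letters and not a measured contact, and windows without one say nothing of the factor.

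Composite matches were unevenly spread over signal. Their share was 15% in the strongest quintile of intronic peaks (signal 7.52 to 26.14), then 10.8%, 6.37%, 6.05% and 7.57% in the following quintiles. The octamer varied less, from 15.6% in the strongest to 12.1% in the fourth. The median signal was 6.17 in the 144 peaks with the composite (95% interval of the median 5.87 to 6.75) and 5.49 in the 1429 without (5.29 to 5.58). Matches lay close to the peak centre, at a median of 24 bp for the composite, 28 bp for the octamer and 18 bp for MORE when 250 bp on each side were searched. The windows held 46.1% G or C and 10.9 CpG per kb, where promoter peaks held 33.3 CpG per kb.

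**Figure D1:**
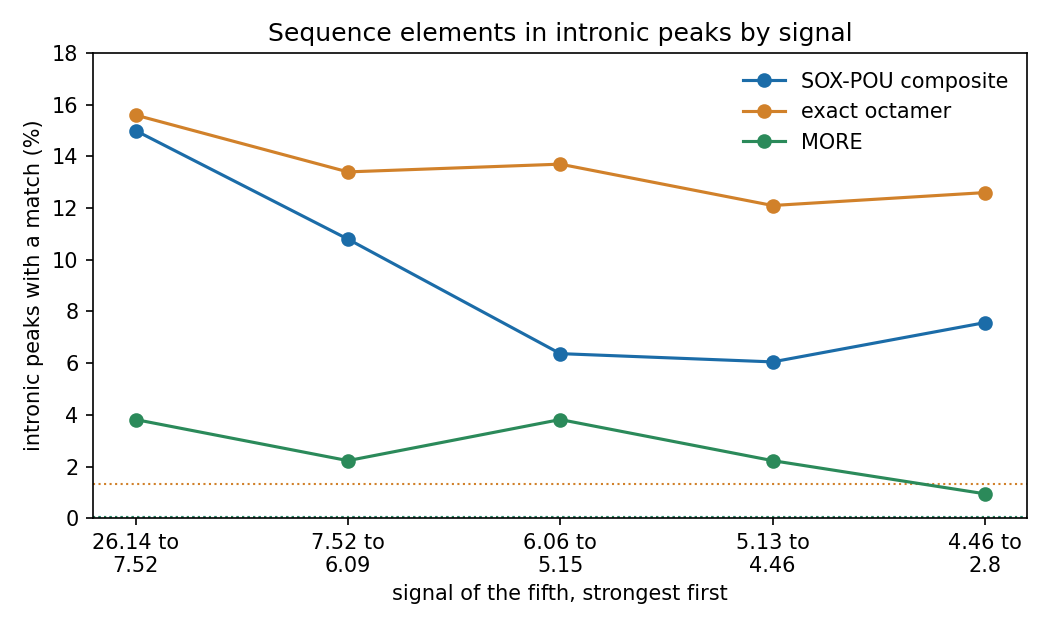
Share of the 1573 intronic peaks with a match within 100 bp of the centre (y axis, percent) by quintile of signal, strongest first (x axis, highest and lowest signal). Solid lines are the SOX-POU composite, the exact octamer and MORE, and dotted lines of the same colour the share in windows shifted by 2 kb (1.34% for the octamer, 0.0636% for the other 2). The composite falls from 15% to 6.05% and is 7.57% in the weakest quintile.

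The signal of the intronic peaks spanned 2.8 to 26.14 with a median of 5.58 (95% interval 5.29 to 5.58), and the middle of the range, from the lower to the upper quartile, was 4.7 to 7.05. Signal is the authors' own value per peak, whose scaling is not stated, so it was compared only within a list. The intergenic peaks had a median of 5.29 and the promoter peaks 5.58, which are the end points of the interval for intronic peaks. Many peaks share the same signal value, so this does not show that the classes are alike. Differences in signal between classes were not tested. Intronic peaks were 37 of the 100 strongest and 150 of the 500 strongest peaks of the list, and 28.5% of the whole list. Their widths ran from 180 to 3360 bp with a median of 372 bp.

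Support from the separate replicate lists was uneven. Of the 1573, 356 (22.6%, 95% interval 20.6 to 24.8%) overlapped a peak in the lists of both replicates by at least 1 bp, against 21.9% over the whole list. A further 1015 (64.5%) overlapped only replicate 2, 8 only replicate 1, and 194 (12.3%) neither. The replicate 1 list is much shorter, with 1330 peaks against 6324 for replicate 2, and the part of depth in this was not tested. With the rule applied to the replicate 1 list alone there were 383 intronic peaks, and 1769 with that of replicate 2. The median signals were 8.52 for peaks in both lists, 5.29 for replicate 2 only, 4.845 for replicate 1 only and 4.41 for neither. From the strongest to the weakest quintile the share in both lists went 78%, 26.1%, 7.32%, 1.91% and 0%. Over the 356 shared peaks the signals of the replicates had a Spearman correlation of 0.61 across peaks, which are not independent replicates and were selected by presence in both lists.

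**Figure D2:**
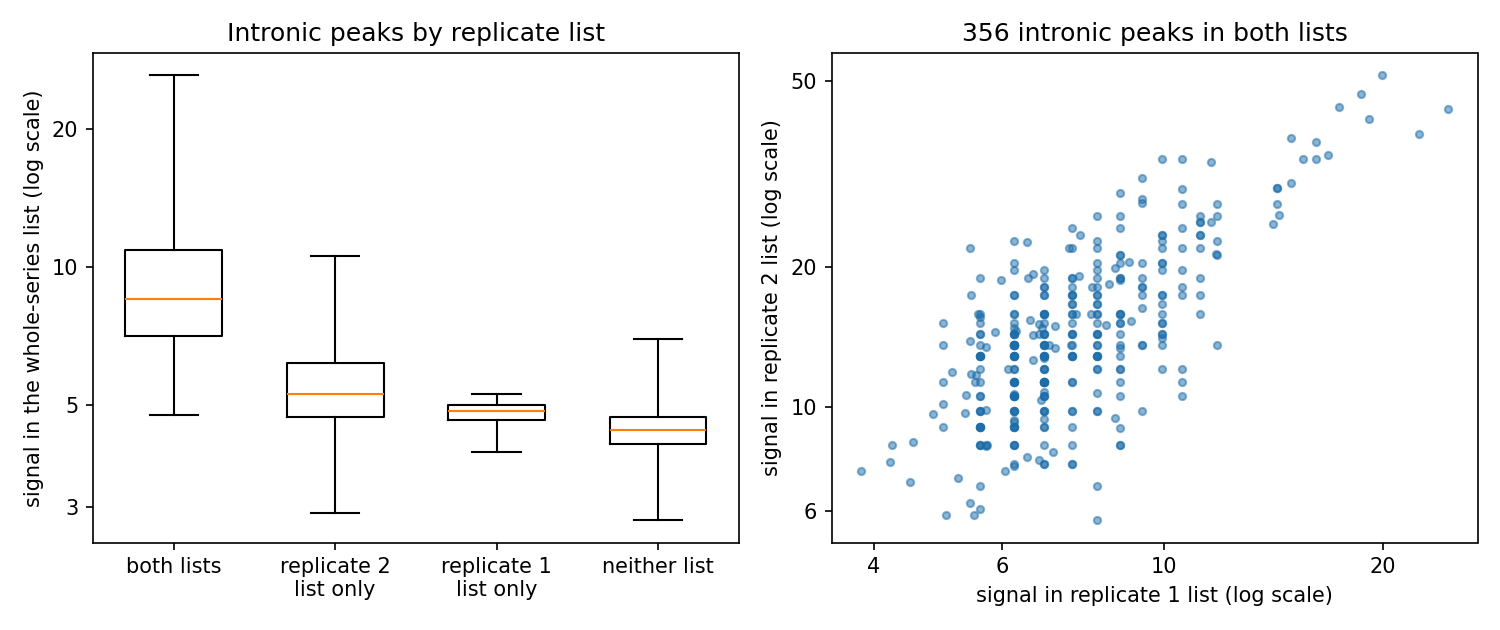
Left, signal in the whole-series list (y axis, log scale) of intronic peaks by presence in the replicate lists (line, median; box, quartiles; whiskers, full range). Right, signal in the replicate 1 list (x axis, log scale) against that in the replicate 2 list (y axis, log scale) for the 356 peaks in both. The medians are 8.52 for both lists and 4.41 for neither, and the strongest peaks are high in both replicates.

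The 20 strongest intronic peaks had signals from 16.15 to 26.14, lay in 20 different genes and were all in both replicate lists. Gprc5b, an orphan G-protein-coupled receptor gene, held the highest, at 26.14 in the whole-series list, 19.91 in replicate 1 and 51.39 in replicate 2 (chromosome 7, 126135846 to 126136478, intron 1, 2.56 kb from the start). Il11ra1, which encodes the interleukin 11 receptor alpha chain, followed at 25.55, with 18.66 and 46.86 in replicates 1 and 2. The nearest coding start to that peak belonged to another gene. GENCODE M1 gives Il11ra1 a span of 69.3 kb, where RefSeq gives 9.03 kb. Iqgap1, a scaffold of the actin cytoskeleton, had 25.26, with 22.4 and 38.55, in intron 15 and 56.7 kb from any coding start. These 3 were high in both replicates, and their order was the same in the whole-series list as in replicate 2 but not in replicate 1.

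Abca4, a lipid transporter gene of photoreceptors, had 23.58, with 24.57 and 43.43 in replicates 1 and 2. Rapgef1, an exchange factor for the GTPase RAP1, had 22.61, with 17.42 and 43.84. Lemd1, a gene for a LEM-domain protein, had 22.06, with 19.16 and 41.44. The Abca4 peak was the highest of the 20 in replicate 1 and lay in intron 32 of 49. The others, in order of signal, were in Macrod1 (an ADP-ribose hydrolase), D430041D05Rik, Rnf220 (a ubiquitin ligase), Sema5b (a semaphorin), Nell1, Rnf115, Grik3 (a kainate receptor subunit), Mttp (lipoprotein assembly), Ehmt1 (a histone H3 lysine 9 methyltransferase), Cntnap4, Dock2 (a RAC exchange factor), Kat2b (a histone acetyltransferase), Mpped2 and 4933439F18Rik. Of the 20, 8 lay in first introns, and in 5, among them Il11ra1, Lemd1 and Macrod1, the nearest coding start belonged to a gene other than the host. Only 5 held the composite, octamer or MORE: Cntnap4 the composite, Gprc5b and Il11ra1 the octamer, and Lemd1 and Kat2b MORE.

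The intronic peaks were spread over the eligible sequence at 2.2 per Mb (exact 95% Poisson interval 2.09 to 2.31, counting error only) in 714 Mb of intron. The density was 2.81 per Mb in the matching intergenic sequence, 1.9 in exons and 5.47 within 1 kb of starts. Within introns it declined with distance from the nearest coding start, from 2.7 per Mb (2.43 to 2.99) at 1 to 5 kb over 2.51, 2.4 and 1.9 to 1.66 (1.45 to 1.91) at 50 to 100 kb. Intergenic peaks followed the same course at a higher level, from 3.8 to 2.08 per Mb. The median distance of an intronic peak to a coding start was 13.6 kb (quartiles 5.41 and 32 kb), and in 1356 of 1573 (86.2%) that start belonged to the host gene.

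First introns of the longest transcript held 528 of the 1550 peaks that could be placed (34.1%, 95% interval 31.7 to 36.5%), where first introns make up 28.6% of the eligible intron sequence of coding genes. The density was 2.56 per Mb (2.35 to 2.79) in first introns and 1.99 (1.87 to 2.11) in later ones. At 1 to 5 kb from a start the 2 densities were 3.1 (2.65 to 3.61) and 2.25 (1.94 to 2.59), and at 20 to 50 kb both were 1.88. The intervals of first and later introns were apart at 1 to 5 kb and overlapped in the other 4 distance bins. The difference was not tested. The typical host intron was long, with a median of 21.5 kb, and the median distance to the nearest exon was 4.11 kb. Of the 1573 peaks, 37 (2.35%) also lay inside a gene annotated as a lincRNA or processed transcript. The rule leaves out the exons and starts of such genes too, and no share for other peaks was made.

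**Figure D3:**
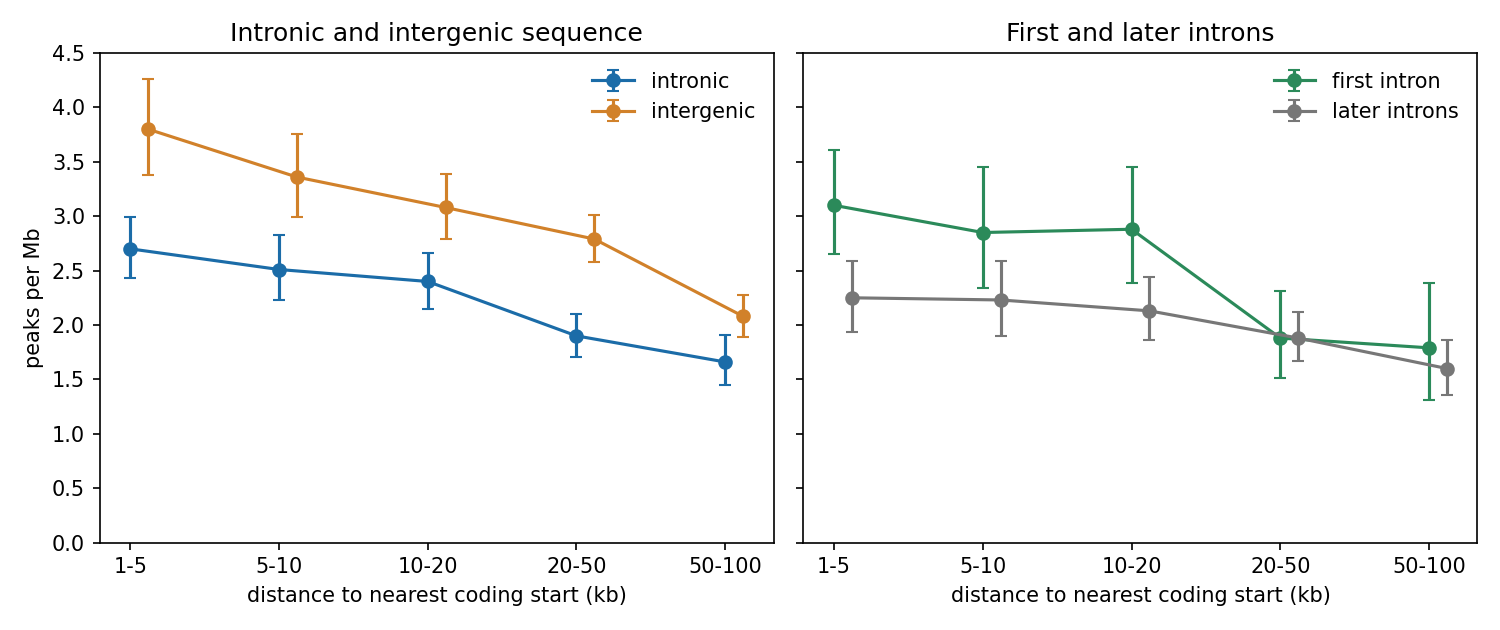
Peaks per Mb of eligible sequence (y axis) by distance to the nearest coding start (x axis, kb); bars are exact 95% Poisson intervals. Left, intronic peaks fall from 2.7 to 1.66 per Mb and intergenic peaks from 3.8 to 2.08. Right, first introns are at 3.1 and later introns at 2.25 per Mb at 1 to 5 kb, and both at 1.88 at 20 to 50 kb.

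The peaks nearest to the limits of the rule were as follows. An intronic peak of Fgf9, a fibroblast growth factor gene, lay 1001 bp from a start at signal 5.87 and was included, and one in Rbm14 at 990 bp and signal 14.68 was not. At the far limit, a peak in Fbxl17 at 101 kb and signal 6.17 was not included. Before the distance limits 1991 peaks were intronic, of which 208 lay within 1 kb of a start and 210 over 100 kb away.

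The 1573 peaks fell in 1320 protein-coding genes, which is 5.9% of 22380. The intronic peaks of the replicate 1 list alone fell in 356. Host genes were long. Their median length was 89.6 kb (quartiles 41.3 and 181 kb, range 3.95 to 4435 kb), against 15.4 kb for all coding genes (quartiles 4.68 and 42.4 kb). Genes over 100 kb made up 45.5% of hosts and 10.7% of coding genes. A longer gene offers more eligible intron, and the counts were also taken per Mb of it. Hosts were 0.648%, 2.5%, 6.66% and 19.7% of genes from the second to the longest quintile of length, while gene-peak pairs per Mb were 2.29 (1.55 to 3.27), 2.45 (2.02 to 2.94), 2.49 (2.23 to 2.79) and 2.12 (2 to 2.24). The shortest quintile had 0 hosts in 0.586 Mb of eligible intron.

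**Figure D4:**
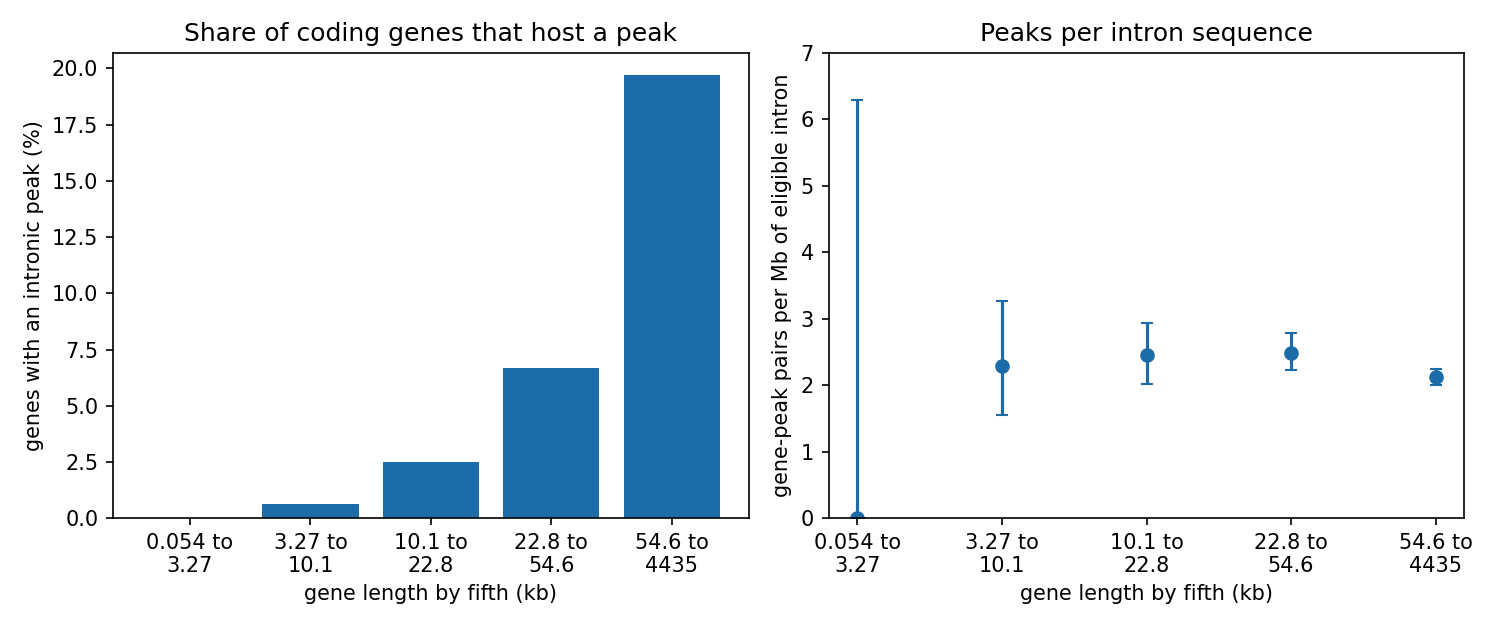
Left, share of protein-coding genes with an intronic peak (y axis, percent) by quintile of gene length (x axis, kb). Right, gene-peak pairs per Mb of eligible intron with exact 95% Poisson intervals. The share climbs to 19.7% in the longest quintile, while the density stays between 2.12 and 2.49 per Mb in the 4 quintiles that have peaks.

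In 205 hosts there were at least 2 intronic peaks, together 491 of the peaks, and 1115 hosts had 1. The 48 genes with at least 3 were 0.214% of coding genes. There were 2 such genes with the replicate 1 list alone, 19 at a −log10 p of at least 10 and 26 with peaks over 5 kb from every start. Median length was 77 kb for hosts with 1 peak, 163 kb with 2 and 256 kb with at least 3. The median signal was 5.58, 5.29 and 5.58 in these groups, and the share in both replicate lists 22.1%, 23.6% and 24%. Neighbouring peaks in a gene were a median of 34.5 kb apart, and 40 of 288 such pairs were within 5 kb. In 80 of the 205 genes (39%) all peaks lay in a single intron.

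Etl4, the gene of the enhancer trap locus 4, had the most peaks, 13 over 570 kb of its 901 kb on chromosome 2. Their signals ran from 3.52 to 11.91 with a median of 5.29. The strongest, at 11.91, was 5.41 in replicate 1 and 21.97 in replicate 2, and the next, at 8.52, was 6.11 and 12.09. Those 2 were in both replicate lists, 9 were listed for replicate 2 alone, 1 for replicate 1 alone and 1 for neither. Etl4 held 1.94 peaks per 100 kb of eligible intron. All introns together held 2.2 per Mb, which is the longer unit, so the density in Etl4 was well above that of all introns. Etl4 was named for having the most peaks, so its density is not independent of that choice. Auts2, a gene of neuronal development of 1106 kb, had 6 peaks with signals from 4.06 to 8.52. Of the 6, 2 lay within 65.5 kb of the gene start and 4 from 979 kb on, and 2 were in both replicate lists. Only 449 kb of the gene was eligible under the rule, so peaks in much of its middle could not be counted.

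Btbd11 had 5 peaks in its first intron, with signals from 4.43 to 7.34, of which 1 was in both lists. Msi2, a Musashi RNA-binding protein gene, had 5 with signals from 5.29 to 6.75 and 2 in both lists. Zfp536, a zinc finger gene, also had 5, from 4.41 to 5.29, all of them only in replicate 2. Grik3 had 4 in its first intron. The strongest reached 17.91, with 10.58 in replicate 1 and 34.01 in replicate 2, and the other 3 were at 7.05, 4.41 and 3.82. Epha4, an ephrin receptor gene of 148 kb, had 4 peaks at 4.99, 8.22, 8.81 and 9.1, of which 2 were in both lists. The gene 5730522E02Rik had 4 at 3.74, 5.87, 9.69 and 12.04, again with 2 in both lists. Dtnb, Clybl and Myo10 also had 4 each. Grik3 thus had 1 strong peak among weaker ones, while the peaks of Msi2 had similar signals.

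Ebf1 and Ptch1 were picked after their values had been seen. The 3 Ebf1 peaks had signals of 7.05, 14.39 and 12.33, each held a composite match, and the stronger 2 were in both replicate lists. Ptch1, the Hedgehog receptor gene, had 3 peaks at 16.15, 5.29 and 4.41 in 64.2 kb, of which the strongest was 14.11 in replicate 1 and 24.67 in replicate 2.

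**Figure D5:**
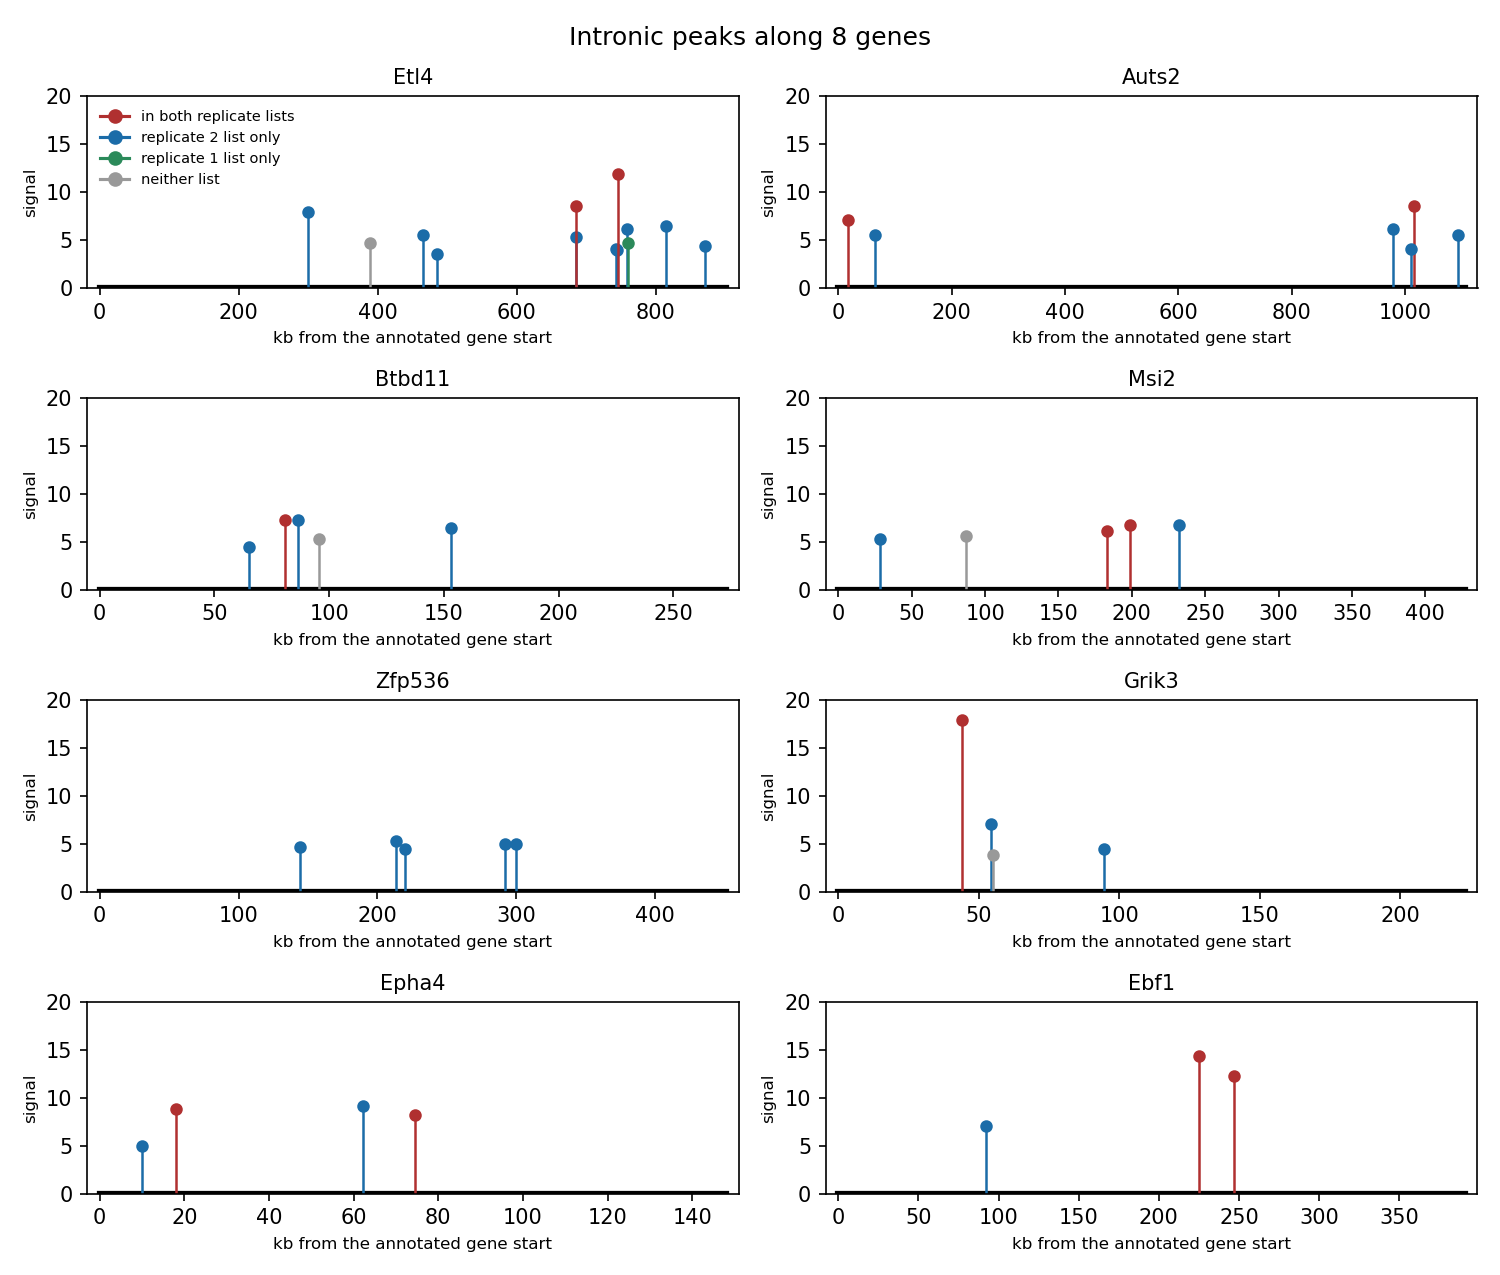
Position of intronic peaks along 8 genes (x axis, kb from the annotated gene start) and their signal (y axis), coloured by presence in the replicate lists; the black line is the gene. Etl4 has 13 peaks over 570 kb, Auts2 has 6 but only 449 of its 1106 kb was eligible, and the highest peak of Grik3 reaches 17.91 beside 3 of at most 7.05.

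Counts for 4 of the 48 genes rest on the annotation. Fgfr2 had 11 peaks and Gm20388 had 5, but GENCODE M1 gives Fgfr2 a span of 3009 kb, through a long transcript, where RefSeq gives 104 kb. Gm20388, annotated over 4435 kb, and 5730522E02Rik, over 608 kb, had no RefSeq match. Zfp420, named after its values were seen, had 3 peaks over an annotated 55.7 kb, against 17.3 kb in RefSeq. None of the 11 Fgfr2 peaks was in the list of replicate 1. Of 1297 hosts matched to RefSeq, 39 had a GENCODE span over 2 times the RefSeq length, and 40 intronic peaks lay only in such hosts. Il11ra1 was of this kind, with 69.3 kb against 9.03 kb.

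Among regulators of pluripotency, 4 of 25 listed genes were hosts, against 5.9% of coding genes. All 4 were among the 5 of the list in the longest quintile of gene length, where 19.7% of coding genes were hosts. Esrrb, an orphan nuclear receptor of the naive state, had 3 peaks at 7.93, 4.99 and 4.41, of which the strongest was 6.22 in replicate 1 and 13.6 in replicate 2. Tcf7l1, the repressor at Wnt target genes also called TCF3, had 2, the stronger at 7.93 with 6.22 and 11.34. Tcfcp2l1 had 1 at 4.7, in the list of replicate 2 only (8.31). Etv5 had 2 at 4.41, both in neither replicate list. The listed regulators are short, with a median of 11.9 kb, and most of them had no intronic peak under the rule.

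Chromatin genes were hosts in several lists, to be read beside 5.9% of all coding genes and 19.7% of those in the longest quintile. All gene lists were chosen with earlier results of these data known, so their shares are not independent of that choice. Of 24 remodelling genes 10 were hosts (41.7%, 95% interval 22.1 to 63.4%), with a median list length of 92.6 kb and 15 genes in the longest quintile, 9 of them hosts. Their strongest peaks were in Ino80 at 8.92 (8.71 in replicate 1, 13.39 in replicate 2), Chd9 at 8.51 (replicate 2 only, 16.06) and Mta3 at 8.22 (8.09 and 13.6). Smarca2, a catalytic subunit of BAF complexes whose window is printed above, had 1 peak at 7.64 (6.22 and 13.6). Of 25 genes of Polycomb and histone methylation 5 were hosts, where 12 were in the longest quintile and 3 of those were hosts. Ehmt1 had 3 peaks, the strongest at 17.03 with 10.58 and 29.36 in the replicates. Mtf2, a Polycomb accessory protein gene, had 14.68 with 11.62 and 24.96, and Kdm5b, a histone H3 lysine 4 demethylase gene, had 6.75 in the list of replicate 2 only. Of 15 DNA methylation genes, 6 of them in the longest quintile, 2 were hosts, the dioxygenase genes Tet2 at 8.14 (in both lists) and Tet3 at 6.52 (replicate 2 only).

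In the Wnt list 5 of 24 were hosts, all among its 13 genes in the longest quintile. Of all coding genes 5.9% were hosts, and of the longest quintile 19.7%. The highest signals were in the corepressor Tle1 at 9.1, the R-spondin receptor Lgr5 at 8.22 and Lef1 at 6.46, none of which was in the list of replicate 1. In the LIF and JAK-STAT list 2 of 16 were hosts, Pim1 at 6.46 and Jak2 at 6.17. No gene of the Nodal, TGF-beta and BMP list was a host (0 of 24). Its interval runs up to 14.2% and holds the 5.9% of all coding genes, and 12 of the 24 were in the longest quintile.

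Genes of actin, adhesion and GTPase signalling were hosts in 11 of 30 cases (36.7%), against 5.9% of all coding genes. Their median length was 122 kb, and 20 of the 30 were in the longest quintile, where 9 were hosts. The highest signals were in Iqgap1 at 25.26, the polarity gene Pard3 at 10.57 and the catenin gene Ctnna1 at 8.52. Of 25 synaptic and neuronal genes with long introns, 10 were hosts (40%). All 25 were in the longest quintile, where 19.7% of coding genes were hosts. Their median length was 1106 kb, while that quintile begins at 54.6 kb, so the 19.7% is not a share for genes of like length. The highest signals in this list were 10.87 in Sorcs1, 8.52 in Auts2 and 7.93 in Nrxn3. Feeder fibroblast genes, of which 5 were in the longest quintile, had 1 host of 20, Fn1. Ribosomal protein genes, with a median of 4.02 kb and 0 in the longest quintile, had 0 of 24. Of all genes from 3.27 to 10.1 kb only 0.648% were hosts, so this 0 gives no contrast. Intervals for lists of this size are wide, they do not allow for how the lists were chosen, and nothing was tested between lists.

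The authors' mm10 lists, made from the same libraries, were read by gene because coordinates were not converted. An optimal peak of the irreproducible discovery rate (IDR) procedure, which keeps peaks that rank alike in repeated lists, lay in the RefSeq body of 867 of 1291 matched hosts (67.2%, 95% interval 64.5 to 69.7%), against 6.94% of 21900 coding genes. In the longest quintile of RefSeq genes the shares were 72.4% for hosts and 9.5% for other genes. By number of intronic peaks the share was 64.4% with 1, 78.8% with 2 and 93.5% with at least 3. These groups also rise in median gene length, from 77 over 163 to 256 kb, and the shares were not split by length. Etl4 had 11 optimal peaks in its body, Auts2 had 7 and Epha4 had 4, while Fgfr2 had 1 in the RefSeq body and Il11ra1 had 0. In the relaxed mm10 lists, of 300000 entries per replicate, the best-ranked entry in the body of each host of the 20 strongest peaks was found. Its rank was a median of 58.5 in replicate 1 and 47 in replicate 2, and within 100 for 13 and 15 of the 20 hosts. The best ranks were 3 for Abca4 in replicate 1 and 7 for Lemd1 in replicate 2. The worst were 216373 and 255175, both for Il11ra1, whose RefSeq body is the shorter one given above, and 4933439F18Rik was next at 12047 and 2381. A peak in the body need not be the intronic peak of the mm9 list.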

How the data were processed

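POU5F1 ChIP-seq peak lists of 2 biological replicates of E14TG2a.4 cells were used as deposited. The authors deposited, on mm9, a list per replicate and a whole-series list, each with a signal value, a −log10 p-value and a q-value per peak. The mm9 signal and its scaling are the authors' own, and no peak of the whole-series list had a −log10 p below 5.008. The q-value column deposited by the authors was not used in any test. On mm10 the authors deposited relaxed lists and IDR lists. The aligner, the peak caller, the IDR threshold and how replicates were combined are not given in the sources used here.

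Peaks were classed by their centre against GENCODE M1 on NCBIM37 (mm9). Eligible sequence was counted on a grid of 100 bp. Motifs were searched on both strands in 201-bp windows and in the same windows shifted by 2 kb. The genome sequence was not repeat-masked, so no repeat share was made. Gene lengths and mm10 gene bodies came from RefSeq, and coordinates were not converted between builds. Intervals are 95% Clopper-Pearson, Poisson or order-statistic intervals, which cover counting error only. No test was run, since there was 1 group and 1 value per peak. Named genes were the hosts of the 20 strongest peaks, the 10 hosts with most peaks (ties by summed signal), up to 3 hosts per gene list (12 lists, 276 genes, all found) and those nearest the limits. The members and lists were chosen with earlier results of these data known. The FGF and ERK list and the included peak nearest to the far limit are not reported here. Classification and motif search were tested on simulated data. Python 3.11.15, NumPy 2.4.6, SciPy 1.17.1 and pysam 0.24.0 were used.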

Additional observations from a re-analysis of the deposited data

How the results depend on the processing

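Of 80 alternative values over 10 results, 54 stayed within the interval of the reported value or within 1.5 times a count, and 26 moved. With the list of either replicate in place of the whole-series list, the number of intronic peaks ranged from 383 to 1769, host genes from 356 to 1458, genes with at least 3 peaks from 2 to 65, median host length from 89.5 to 101 kb, the share in both lists from 20% to 94.8% and the composite share from 8.54% to 14.9%. The lower counts were from replicate 1. Each peak of a replicate list is in that list by construction. The 94.8% for the replicate 1 list and the 20% for that of replicate 2 therefore measure only overlap with the other replicate's list. Signal was not compared between lists. Requiring a −log10 p of at least 10 left 891 peaks with a median signal of 6.75, 796 hosts, 19 genes with at least 3 peaks and 39.2% in both lists. Requiring an overlap of at least 0.5 of each peak's length gave 16.3% in both lists. Over 5 kb from starts, there were 26 genes with at least 3 peaks, a median host length of 105 kb and a first-intron share of 30.6%. Without an upper distance limit these last values were 99.2 kb and 31.5%. First introns of any transcript held 46.5%. The composite was in 1.97% with at most 1 mismatch, 31.5% with at most 3 and 7.37% in windows of 50 bp on each side. The octamer was in 55.7% with at most 1 mismatch, 10.6% within 50 bp and 15.7% within 250 bp. The conservative mm10 list had a peak in 51.6% of host bodies. The cause of these moves was not tested, apart from fewer or more peaks, bases or mismatches by construction. Leaving out genes longer than 2 times their RefSeq length or without a RefSeq match, chosen after seeing the data, moved none of the values out of these limits. No paired analysis was possible because there is 1 group.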

Other observations

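The letters ATGAATATGCA were noticed in the windows of the strongest intronic peaks and then counted, so their share among those peaks is not independent of the choice. They were found in 23 of 1573 intronic windows (1.46%, 95% Clopper-Pearson interval 0.929 to 2.19%) and in 0 of the 1573 windows shifted by 2 kb, which allows up to 0.234%. Over all peaks the counts were 85 of 5515 (1.54%) and 3 shifted windows. Of the 23, 5 were among the 20 strongest intronic peaks, and outside those 20 there were 18 of 1553 (1.16%). By quintile of signal, strongest first, 11, 3, 8, 0 and 1 peaks held the letters. Their signals ran from 3.82 to 26.14 with a median of 7.22, 12 of the 23 were in both replicate lists, and 2 also held the octamer. Of the 23, 16 also matched MORE with at most 1 mismatch, so those are already counted there. Beyond the 20 strongest, the highest were in Qprt at 14.98, Galnt9 at 14.68 and Ptprf at 11.75, all in both replicate lists.

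Chromosome X held 13 intronic peaks, or 0.408 per Mb of eligible intron (exact 95% Poisson interval 0.217 to 0.698), where the autosomes ranged from 1.89 to 2.85 per Mb. Over the whole list the density on chromosome X was 0.518 per Mb. The cells are male, with a single X, and the part of copy number in this was not tested.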
